A study of Mus musculus with 16 samples.

Results

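The 8 genes described here encode the m6A writer complex, the enzyme complex that places N6-methyladenosine (m6A) on messenger RNA: Mettl3, Mettl14, Wtap, Virma, Rbm15, Rbm15b, Zc3h13 and Cbll1. They are 8 of the 21887 protein-coding genes in the gene table used, and all 8 were found. They were chosen by name and not by a cut on measured values, but with earlier results of these data known. For each gene all called peaks in its annotated mm10 span and in 5 kb either side were taken from 12 peak lists. Chromatin immunoprecipitation with sequencing (ChIP-seq) had been done in mouse embryonic stem cells (mESCs) of strain C57BL/6 for 3 histone marks, in cells labelled Mettl14 Control and in cells labelled Mettl14 CKO, called knockout below, with 2 libraries of each kind per mark. Cells of both genotypes were grown in serum medium with LIF, the GSK3 inhibitor CHIR99021 and the MEK inhibitor PD0325901. How the knockout was made, with the exons removed and the number of clones, is not given in the sources used here, and neither is whether the replicates were separate cultures, so the spread between replicates may be technical. The series asked how histone modifications change when Mettl14 is lost.

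METTL3 is the catalytic subunit of the writer and METTL14 its partner, which forms part of the RNA-binding surface of the heterodimer. WTAP and VIRMA hold the heterodimer at nuclear speckles and help to select its sites, RBM15 and RBM15B bring it to target RNAs, ZC3H13 anchors it in the nucleus and CBLL1 (HAKAI) is a RING-finger protein that stabilises the complex. In embryonic stem cells m6A shortens the life of transcripts of pluripotency genes. Of the marks, H3K4me3 sits at active and poised promoters, H3K27ac at promoters and enhancers in use, and H3K27me3 at genes silenced by Polycomb proteins.

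The lists give peak positions and widths and no heights, so a gene is called in a list when a peak overlaps its window by at least 1 bp, and its level is the number of called bases in the window. A gene is knockout-only for a mark when both knockout lists and neither control list call it, and control-only in the reverse case. The H3K4me3 lists held 2431 to 2859 peaks in control and 8055 to 8131 in knockout cells, the H3K27ac lists 13520 to 15541 and 15058 to 15271, and the H3K27me3 lists 6312 to 7203 and 11349 to 11446. The read depth behind them is not known here. The labels of the H3K27ac libraries name the H3K4me3 antibody, and the mark in their titles was used. Of 10 naive mESC marker genes 9 had H3K27ac in all 4 lists, Pou5f1, Nanog and Sox2 among them. In both lists of either condition it was called at 0 of 8 fibroblast and 0 of 7 primitive endoderm markers, and of 7 trophectoderm markers Tfap2c alone was called in both knockout lists. H3K4me3 over the 7 trophectoderm markers summed to 0 kb in each control list and to 2.16 kb and 2.31 kb in the knockout lists. Eomes and Tfap2c were knockout-only, as were 15.4% of all protein-coding genes. Krt8 was called in knockout replicate 2 alone, and Cdx2, Elf5, Krt18 and Hand1 were at 0 in all 4 lists. The naive mESC markers held 8.965 kb and 3.92 kb in control and 23.9 kb and 25.3 kb in knockout lists. The fibroblast markers held 0 kb in each control list and 0.501 kb and 0 kb in the knockout lists. For primitive endoderm markers the values were 0.501 kb and 0 kb against 0 kb and 1.16 kb. The part of these marker calls in the results below was not tested. The windows of the 8 genes held 21 H3K4me3 peaks, 34 H3K27ac peaks and no H3K27me3 peak.

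All 8 genes carried H3K4me3 in both knockout lists. 6 of them, Mettl3, Mettl14, Wtap, Virma, Rbm15b and Zc3h13, carried it in neither control list, Rbm15 carried it in all 4 lists, and Cbll1 in 1 control list. No member was control-only. Over all protein-coding genes 15.4% were knockout-only and 0.110% control-only, 30.4% were called in both knockout lists, 4.82% in both lists of control cells and 4.46% in all 4. Among the 6660 genes called in both knockout lists, 50.7% were knockout-only, against 6 of the 8 members. The 8 windows together held 1.72 kb and 0.812 kb of called H3K4me3 in the control lists and 9.72 kb and 11.5 kb in the knockout lists. Both knockout sums lay above both control sums, with means of 10.6 ± 1.29 kb and 1.27 ± 0.643 kb (SD, n = 2 each), an 8.40-fold ratio. Over the windows of all genes the same ratio was 5.39-fold. The ratio of the members was 13.1-fold without control replicate 1 (5.55-fold over all genes) and 4.75-fold with every H3K4me3 list reduced to its widest 2431 peaks (3.08-fold over all genes), and with peaks wider than the minimum of 501 bp it lay below that of all genes, at 8.0-fold against 8.7-fold. At equal length Wtap alone was knockout-only (3.01% of all genes) and Wtap, Rbm15 and Cbll1 were called in both knockout lists (10.6%), and with wider peaks alone 4 members were knockout-only (17.3%), without Mettl3 and Rbm15b.

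**Figure D1:**
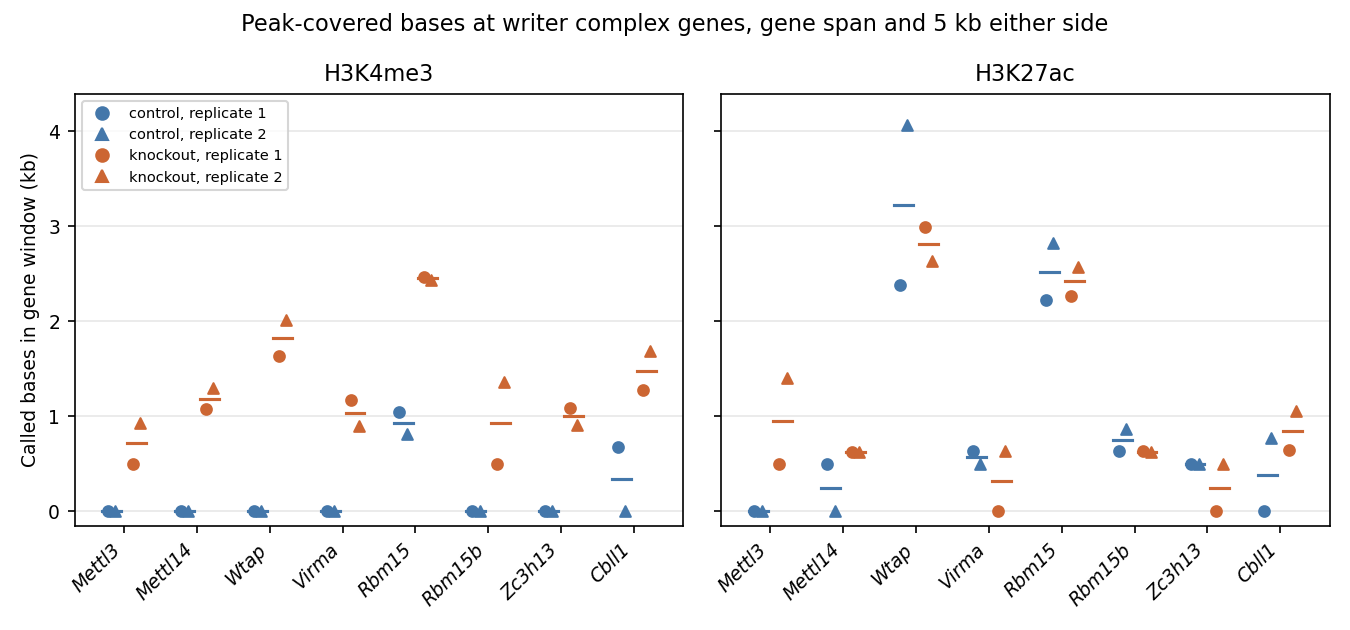
Called bases (kb, vertical axis) of H3K4me3 (left) and H3K27ac (right) in the window of each writer complex gene, with 1 symbol per list (circle replicate 1, triangle replicate 2) and a bar at the mean of 2 lists. For H3K4me3 every knockout list lies above every control list at all 8 genes, and 6 genes are at 0 in both control lists, while for H3K27ac the groups overlap at 5 of 8 genes.

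Mettl3, the catalytic subunit, lies on chromosome 14 (52294841 to 52308741). Its called H3K4me3 was 0 bp in control replicates 1 and 2, 501 bp in knockout replicate 1 and 931 bp in knockout replicate 2. Its called H3K27ac was 0 bp in control replicates 1 and 2, 501 bp in knockout replicate 1 and 1408 bp in knockout replicate 2. Mettl3 was thus knockout-only for both marks, which held for 1.08% of all protein-coding genes. Both peaks of knockout replicate 1 are at the minimum width of 501 bp, and Mettl3 was knockout-only for neither mark when such peaks were left out. The peaks do not lie at an end of the annotated span: RefSeq gives a start of transcription on the minus strand at 52305124, which is 3617 bp inside the span, and all 4 peaks lie within 1 kb of that start. The H3K4me3 peaks ran from 416 to 916 bp and from 6 to 936 bp downstream of it. The H3K27ac peak of knockout replicate 1 ran from -743 to -243 bp, upstream of the start, and that of replicate 2 from -633 to 774 bp, across it. The H3K27ac peaks shared bases with an H3K4me3 peak in 2 of 4 pairs of knockout lists, by at most 769 bp, and in replicate 1 the marks lay on opposite sides of the start.

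Mettl14, the gene targeted in these cells, lies on chromosome 3 (123368295 to 123385990). Its called H3K4me3 was 0 bp in control replicates 1 and 2, 1074 bp in knockout replicate 1 and 1295 bp in knockout replicate 2. Both knockout peaks span the higher-coordinate end of the gene, from 753 bp and 782 bp inside the span outward. Its called H3K27ac was 501 bp in control replicate 1 and 0 bp in control replicate 2, against 629 bp in knockout replicate 1 and 627 bp in knockout replicate 2, at the same end. Knockout values exceeded control values for each mark, although for H3K27ac the distance to control replicate 1 was small beside the distance between the control lists, and inside the span alone the groups overlapped (471 bp and 0 bp in control, 406 bp and 544 bp in knockout lists). In the knockout the H3K27ac peaks shared 627 bp to 629 bp with the H3K4me3 peaks, so they lay inside them. A called mark at the end of the gene does not show whether coding exons are present, so it does not check the knockout label.

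Of the adaptors, Wtap (chromosome 17, 12966799 to 12992543, minus strand) had no called H3K4me3 in control replicates 1 and 2, 1637 bp in knockout replicate 1 and 2012 bp in knockout replicate 2, over its start. Over its whole window H3K27ac was called in all 4 lists, with 2389 bp and 4072 bp in control cells and with 2999 bp and 2638 bp after knockout, so the groups overlapped. Of the 4072 bp, 365 bp are the edge of an upstream peak of 4017 bp that lies mostly outside the window. Separate peaks of 501 bp in the gene body add to it. Within 1 kb of the 3 annotated starts of Wtap the groups did not overlap (exact two-sided permutation p = 0.333). There the control lists held 1888 bp and 2244 bp, against 1850 bp and 1648 bp after knockout. The farthest upstream start of Wtap was under an H3K27ac peak of 1888 bp and 2705 bp in the control H3K27ac lists. The control H3K4me3 lists held no peak anywhere in the window. Virma (chromosome 4, 11485958 to 11551143) had no called H3K4me3 in control replicates 1 and 2, 1177 bp in knockout replicate 1 and 903 bp in knockout replicate 2, at its lower-coordinate end. Its H3K27ac differed in place between the conditions. The control lists held peaks of 640 bp and 501 bp that began 43119 bp and 43396 bp inside the gene, and they overlapped each other. Knockout replicate 1 had no H3K27ac peak, and knockout replicate 2 had 1 of 632 bp, from 55 to 686 bp inside the lower-coordinate end and within the H3K4me3 peak.

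The RNA-binding subunits differed from each other in the control lists. Rbm15 (chromosome 3, 107305511 to 107334460, minus strand, start at 107333289) had called H3K4me3 of 1044 bp and 812 bp in control cells, and of 2469 bp and 2439 bp after knockout, a difference of 1526 bp that is larger than the spread in either group. The control peaks began 94 bp and 469 bp downstream of the start. In knockout replicate 1 the peak reached across the start, from -1029 to 1439 bp, and in knockout replicate 2 there was 1 peak on each side of it, from -1341 to -559 bp and from 93 to 1748 bp. H3K27ac at Rbm15 was 2229 bp and 2822 bp in control cells, against 2266 bp and 2577 bp after knockout, and the groups overlapped. Of the 2822 bp, 501 bp is a separate peak in the gene body that lies within 1 kb of an end of the neighbouring gene Slc16a4. H3K27ac peaks of 2229 bp to 2577 bp crossed the start in all 4 lists, with an upstream edge between -1398 and -1231 bp, where the control lists held H3K4me3 on the downstream side alone.

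Rbm15b (chromosome 9, 106880928 to 106887075, minus strand) is a gene of 6148 bp with its start at the higher-coordinate end. Its called H3K4me3 was 0 bp in control replicates 1 and 2, 501 bp in knockout replicate 1 and 1368 bp in knockout replicate 2. Of the 1368 bp, 577 bp belong to a peak upstream of Rbm15b that lies within 1 kb of an end of Manf and Dock3, and the peak at the start of Rbm15b was 791 bp wide. H3K27ac at its start was 638 bp and 869 bp in control cells, against 633 bp and 626 bp after knockout. The control values thus exceeded the knockout values, but control replicate 1 and knockout replicate 1 differed by less than the spread between the control lists. Over whole windows Rbm15b was the 1 member of this kind, and 3.23% of all protein-coding genes were.

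Zc3h13, the nuclear anchor of the complex (chromosome 14, 75284306 to 75344433, plus strand), had no called H3K4me3 in control replicates 1 and 2, 1090 bp in knockout replicate 1 and 912 bp in knockout replicate 2, over its start at 75284366. These peaks also lie within 1 kb of an end of Cpb2. Whether that end is a start of Cpb2 was not tested. Its H3K27ac again differed in place. The control lists held peaks of 501 bp each, inside the gene, that began 19934 bp and 19464 bp downstream of the start. These shared only a short stretch at their edges, running from 75304300 to 75304800 and from 75303830 to 75304330. Knockout replicate 1 held no H3K27ac peak, and knockout replicate 2 held 1 of 501 bp, from 329 to 829 bp downstream of the start. At both Virma and Zc3h13, control H3K27ac was called only inside the gene body and knockout H3K27ac in replicate 2 alone, near the annotated start of Zc3h13 and near the lower-coordinate end of Virma, whose start is not in the table used. This rests largely on peaks at the minimum width. With peaks wider than 501 bp alone, Zc3h13 had no H3K27ac in any list. Virma then kept it in control replicate 1 (640 bp) and knockout replicate 2 (632 bp) alone. How many other genes show such an arrangement was not counted. These 2 members were the closest of all 28 pairs in called bases over the 12 lists. Cbll1 (chromosome 12, 31484829 to 31500676, minus strand, start at 31499616) had H3K4me3 of 677 bp in control replicate 1 and 0 bp in control replicate 2, against 1275 bp in knockout replicate 1 and 1688 bp in knockout replicate 2. Its H3K27ac was 0 bp and 776 bp in control cells, against 647 bp and 1055 bp after knockout, and the groups overlapped. The control peak of Cbll1 lay upstream, from -1127 to -352 bp, while the knockout peaks crossed the start.

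**Figure D2:**
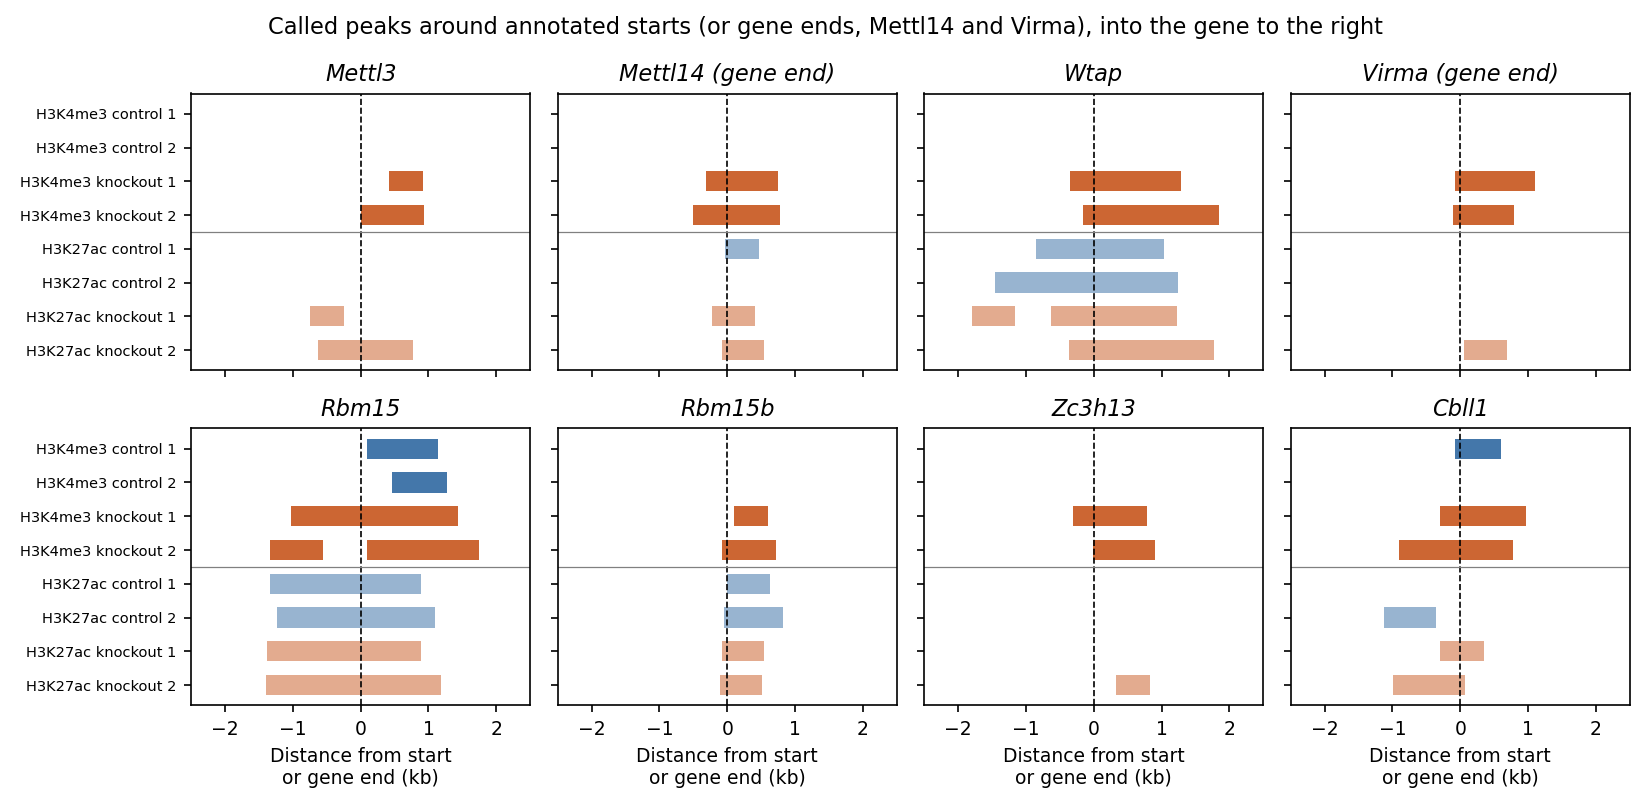
Called peaks within 2.5 kb of the annotated start of 6 genes and of the gene end that carries H3K4me3 for Mettl14 and Virma (horizontal axis, distance in kb, into the gene to the right), with 1 row per list, H3K4me3 in full and H3K27ac in pale colour, control blue and knockout orange. H3K4me3 rows of control cells are filled at Rbm15 and, in replicate 1, Cbll1, and those of knockout cells at all 8 genes.

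At each of the 8 genes called H3K4me3 was higher in every knockout list than in every control list, as at 28.4% of all protein-coding genes. For every member this gave an exact two-sided permutation p of 0.333, the smallest that 2 lists against 2 allow, and 0.574 after Benjamini-Hochberg adjustment over the 10752 genes with any H3K4me3 call. The design therefore cannot pass a threshold of 0.05 at any gene. The groups no longer separated at Mettl3 and Rbm15b with wider peaks alone, or at Mettl3, Mettl14, Virma, Rbm15b and Zc3h13 at equal list length. For H3K27ac, Mettl3 and Mettl14 were higher in both knockout lists (10.0% of all genes) and Rbm15b was lower, each with an exact permutation p of 0.333 and an adjusted p of 1, and the other 5 members overlapped. Mettl14 overlapped as well without flanks (exact permutation p = 0.667), and Mettl3 with wider peaks alone (exact permutation p = 1). Ordered by mean called H3K4me3 in the knockout, Rbm15 came first with 2454 ± 21.2 bp (SD, n = 2), followed by Wtap with 1825 ± 265.2 bp and Cbll1 with 1482 ± 292.0 bp. Over whole windows Rbm15 stood apart from Wtap, while Wtap and Cbll1 overlapped. Mettl14 (1185 ± 156.3 bp), Virma (1040 ± 193.7 bp), Zc3h13 (1001 ± 125.9 bp), Rbm15b (935 ± 613 bp) and Mettl3 (716 ± 304.1 bp) followed, and each of these overlapped its neighbour in the order. Within 1 kb of starts Rbm15 (1676 ± 460.3 bp) overlapped Wtap (1537 ± 130.8 bp), and Rbm15b (646 ± 205.1 bp, SD, n = 2 each), without the peak near Manf and Dock3, came after Mettl3. The median over the 8 members was 1112 bp, beside 1191 bp over all genes called in both knockout lists.

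Summed over whole windows, H3K27ac was more even between the conditions than H3K4me3, at the members as over all genes. The ratio of knockout to control for H3K4me3 was 8.40-fold at the members and 5.39-fold over all genes. For H3K27ac it was 1.08-fold and 1.21-fold. Wtap, Rbm15 and Rbm15b were called in all 4 lists (17.1% of all genes), Mettl3 was knockout-only (2.93% of all genes; with wider peaks alone Mettl14 took its place) and no member was control-only (1.03%). The 8 windows together held 6.90 kb and 9.54 kb in control and 7.67 kb and 10.1 kb in knockout lists. The sums of the groups overlapped, with means of 8.22 ± 1.87 kb and 8.87 ± 1.69 kb (SD, n = 2 each), and the order of these means turned when control replicate 1 (-0.672 kb) or knockout replicate 2 (-0.545 kb) was left out. Within 1 kb of starts, or of either gene end for Mettl14 and Virma, both knockout sums (6.15 kb and 8.50 kb) lay above both control sums (4.91 kb and 5.76 kb), a ratio of 1.37-fold, beside 1.56-fold over all genes. Of the peaks of the 6 members with an annotated start, 7 of 14 control and 11 of 14 knockout peaks of H3K27ac lay within 1 kb of it, as did all 3 control and 13 of 14 knockout peaks of H3K4me3. The shares over the 17492 genes with an annotated start were 26.8% and 33.9% for H3K27ac and 63.4% and 70.5% for H3K4me3. These counts pool 2 lists per condition. Apart from a peak of 4017 bp at Wtap, the control H3K27ac peaks of these members farther from the start were all 501 bp wide. Over all 8 members, 8 of 17 control and 4 of 17 knockout H3K27ac peaks had this minimum width. Near the starts, 3 members had H3K27ac in both control lists and 6 members in both lists of knockout cells, against 8.87% and 14.1% of all genes within 1 kb of their starts. No member was knockout-only, control-only or called in all 4 lists for H3K27me3, where the shares of all genes were 3.06%, 0.334% and 8.50%. H3K27me3 was called at no member in any list, which also held for 67.4% of all genes, and for 75.9% of the genes with H3K4me3 in both knockout lists.

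**Figure D3:**
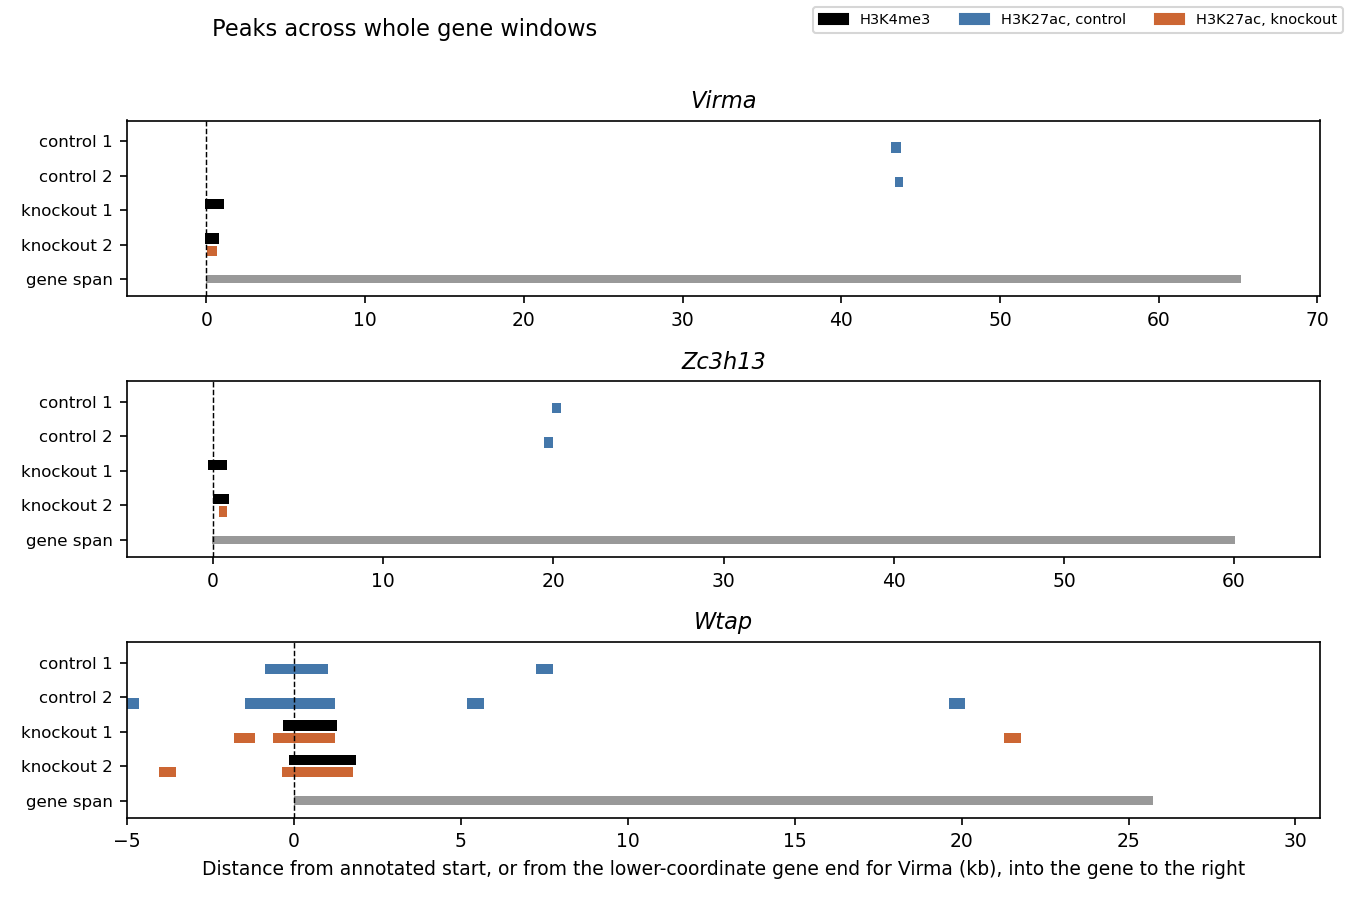
Called peaks over the whole windows of Virma, Zc3h13 and Wtap (horizontal axis, distance in kb from the annotated start, or from the lower-coordinate gene end for Virma), with H3K4me3 in black, H3K27ac in blue for control and orange for knockout lists, and the gene span in grey. Control H3K27ac lies deep inside Virma and Zc3h13, away from the H3K4me3 of the knockout lists, and at Wtap H3K27ac covers the start in all 4 lists. The control peaks inside Zc3h13, and that of control replicate 2 inside Virma, have the minimum width of 501 bp.

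**Figure D4:**
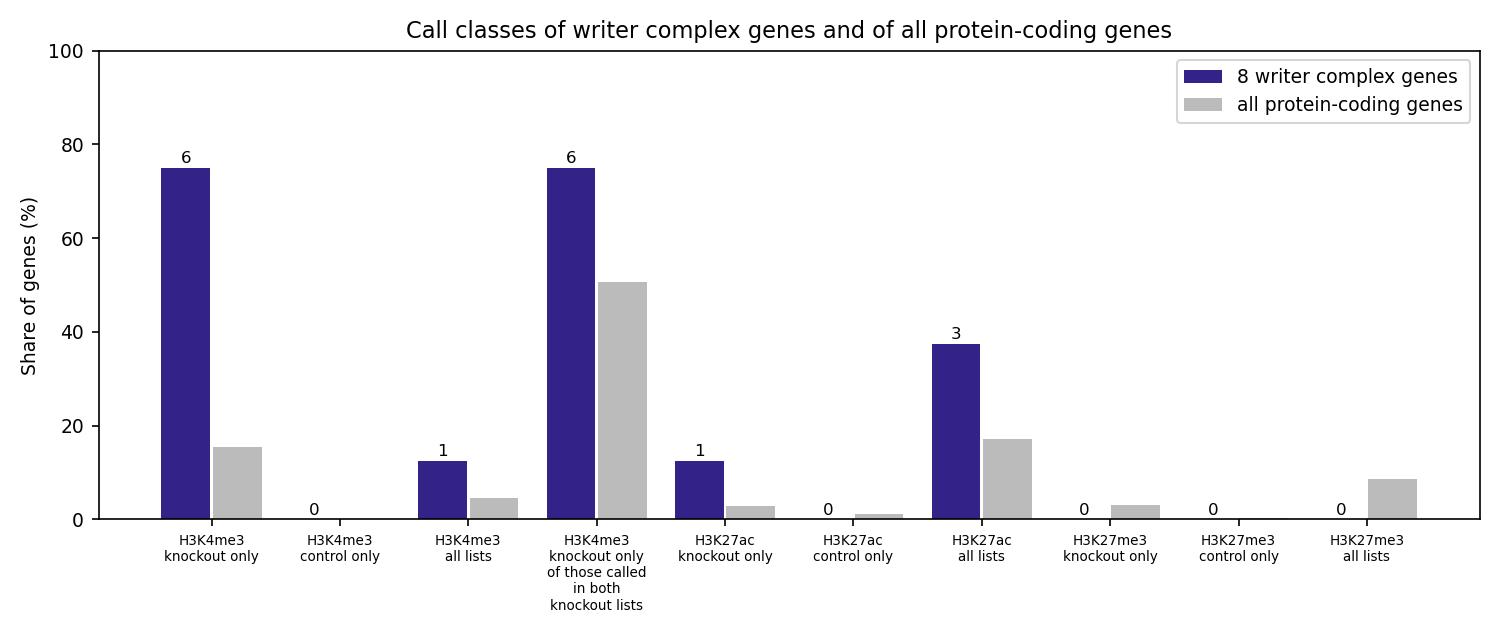
Share of genes (%, vertical axis) in each call class for the 8 writer complex genes (dark bars, with the number of members above) and for all protein-coding genes (grey bars); the bars for genes called in both knockout lists are shares of the genes called in both knockout H3K4me3 lists. The dark bar for knockout-only H3K4me3 stands for 6 of 8 members beside 15.4% of all genes, and beside 50.7% of the genes called in both knockout lists.

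The starts of 6 members are in the RefSeq promoter table (GRCm38.p6, the assembly of mm10), and those of Mettl14 and Virma are not. The 300 bp from 250 bp before the start to 50 bp after it are shown for 4 members that differ in their marks, 5′ to 3′ along the gene. Mettl3 was knockout-only for both marks, Wtap had H3K27ac in all lists and H3K4me3 in the knockout alone, Rbm15 had both marks in all lists, and Rbm15b was as Wtap with narrower peaks. Capitals mark matches on either strand to 7 short motifs: the GC box GGGCGG, the CCAAT box, the E-box CACGTG, the ETS site CCGGAAGT, the YY1 site AAGATGGCG, the NRF1 site TGCGCATGC and the element CTCGCGAGA.
Mettl3 (chr14:52305075-52305374, minus strand): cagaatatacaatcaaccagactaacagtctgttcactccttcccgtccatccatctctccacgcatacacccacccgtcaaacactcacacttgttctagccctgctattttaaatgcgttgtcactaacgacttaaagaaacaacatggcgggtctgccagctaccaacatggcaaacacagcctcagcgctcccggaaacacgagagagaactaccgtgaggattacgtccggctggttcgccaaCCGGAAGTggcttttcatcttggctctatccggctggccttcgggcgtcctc
Wtap (chr17:12992494-12992793, minus strand): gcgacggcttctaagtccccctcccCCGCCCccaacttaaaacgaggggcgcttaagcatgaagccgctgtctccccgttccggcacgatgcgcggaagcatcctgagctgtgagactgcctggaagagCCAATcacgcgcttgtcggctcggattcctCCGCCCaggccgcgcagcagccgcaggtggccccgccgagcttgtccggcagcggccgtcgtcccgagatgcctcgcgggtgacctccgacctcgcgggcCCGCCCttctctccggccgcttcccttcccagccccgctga
Rbm15 (chr3:107333240-107333539, minus strand): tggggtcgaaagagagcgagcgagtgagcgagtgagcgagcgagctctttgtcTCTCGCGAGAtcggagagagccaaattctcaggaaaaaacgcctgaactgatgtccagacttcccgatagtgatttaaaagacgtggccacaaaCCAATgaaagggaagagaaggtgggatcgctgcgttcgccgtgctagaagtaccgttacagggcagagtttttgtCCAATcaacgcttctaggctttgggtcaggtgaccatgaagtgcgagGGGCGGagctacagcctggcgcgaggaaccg
Rbm15b (chr9:106887026-106887325, minus strand): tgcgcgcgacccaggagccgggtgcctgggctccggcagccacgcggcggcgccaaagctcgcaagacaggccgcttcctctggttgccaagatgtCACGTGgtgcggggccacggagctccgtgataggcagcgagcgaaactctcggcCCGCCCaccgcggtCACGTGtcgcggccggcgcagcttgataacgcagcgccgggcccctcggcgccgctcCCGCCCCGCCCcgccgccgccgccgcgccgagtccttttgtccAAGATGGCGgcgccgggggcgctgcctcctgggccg

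The printed stretch of Mettl3 was under no peak in the control lists, in knockout replicate 1 8 bp of it were under H3K27ac and 0 bp under H3K4me3, and in knockout replicate 2 all 300 bp were under H3K27ac and 44 bp under H3K4me3. That of Wtap was under H3K27ac over all 300 bp in all 4 lists, and under H3K4me3 over 300 bp and 209 bp in the knockout lists and 0 bp in the control lists. That of Rbm15 was under H3K27ac in full in all 4 lists, but under H3K4me3 only in knockout replicate 1, since the other H3K4me3 peaks lie on one or both sides of it. All 6 promoters held more CpG than the median promoter, with 17 CpG in Mettl3, 23 in Rbm15, 24 in Zc3h13 and in Cbll1, 35 in Wtap and 46 in Rbm15b. The median was 24 CpG, beside 13 over the 17492 genes with a promoter in the table, 23 over those with H3K4me3 in both knockout lists and 5 over those with it in neither knockout list. Rbm15b had more CpG than 98.0% of genes.

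The motif matches differed between the members. A GC box was present in 5 of the 6 promoters, all but Mettl3, and in 46.3% of all promoters. A CCAAT box was present in Rbm15 and Wtap (39.2% of all promoters). Each of the rarer motifs was found in 1 member: the ETS site at the start of Mettl3 (5.28% of all promoters), the E-box and the YY1 site in Rbm15b (7.91% and 1.92%), and CTCGCGAGA in Rbm15 (1.03%). The NRF1 site, present in 2.05% of all promoters, was in none of the 6 windows. The GC box and CCAAT box lie apart from each other in these sequences, while 2 GC boxes overlap in Rbm15b and in Cbll1, and CTCGCGAGA matches both strands of Rbm15 at overlapping positions. A match is a stretch of letters and does not show that a factor binds there. The motifs were chosen after these promoters had been seen, so the shares of all promoters do not measure how unusual a match is. Knockout H3K4me3 peaks over a start reached further downstream than upstream in 7 of 8 cases among the members with an annotated start, and at 82.0% and 82.3% of all starts under a peak in the 2 knockout lists.

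The other genes of the m6A pathway on a fixed list, 10 readers, 2 erasers and 4 other methyltransferases of RNA adenosine, were also mostly called for H3K4me3 in the knockout. Of these 16 genes 15 were called in both knockout lists, 7 were knockout-only, 3 were called in all 4 lists and none was control-only, against 30.4%, 15.4%, 4.46% and 0.110% of all genes. Among the 15 called in both knockout lists, the 7 stand beside 50.7% knockout-only over all genes so called. The knockout-only readers were Ythdf3, Igf2bp2 and Igf2bp3, which bind methylated transcripts. At Ythdf3 called H3K4me3 was 0 bp in control replicates 1 and 2, 913 bp in knockout replicate 1 and 912 bp in knockout replicate 2. The others were the m6A demethylase Alkbh5 (0 bp in the controls, 2123 bp and 951 bp after knockout) and the methyltransferase genes Mettl5, Zcchc4 and Pcif1. The demethylase Fto was the 1 gene of the 16 not called in both knockout lists (501 bp in knockout replicate 2). All 4 lists held H3K27ac at 13 of these 16 genes and at 3 of the 8 writer genes, beside 17.1% of all genes. None of the 16 was knockout-only or control-only for H3K27ac, where the shares of all genes were 2.93% and 1.03%. H3K27me3 was called at Ythdf2 and Fto, with 501 bp each in control replicate 2 and in no other list. The other 14 had it in no list, as had 67.4% of all genes.

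The genes with a pattern most like that of Mettl14 were taken as those with the smallest Euclidean distance in log2(called bases + 501) over the 12 lists, leaving out predicted genes and genes that share a peak with a member. They were Pdf, Eif3c, Fzr1, Srfbp1 and Prdx5, at distances of 0.281 to 0.369, where the median gene lay at 3.14. Each of the 5 had H3K4me3 in the knockout lists alone, 501 bp of H3K27ac in control replicate 1 and none in control replicate 2, and no H3K27me3. The genes closest to the mean pattern of the 8 members were Rc3h2, Wdr11, Hmgxb3, Lig3 and Ofd1, at 0.528 to 0.625, where the median gene lay at 3.76. Among the members the distance was 1.46 between Mettl14 and Mettl3, 0.269 between Virma and Zc3h13, and 4.92 between Mettl3 and Rbm15, the pair farthest apart. With peaks as the only measure, many genes with 1 peak per list come out alike.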

How the data were processed

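The submitters' processing notes name Bowtie2 2.4.1, HOMER, Trimmomatic 0.38, CASAVA and SAMtools, and build mm10. For peak calling, inputs and spike-in chromatin, tool and settings were not given in the sources used here. The authors deposited 1 BED list of peak positions per library. Its deposited score column is the constant 1 and was not used. The 4 input libraries were not analysed here.

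Gene spans, starts and promoter sequences came from RefSeq tables of GRCm38.p6, without exons or UTRs. Windows were gene spans and 5 kb either side, an overlap needed 1 bp, and called bases were clipped to the window. For the positions of single peaks the farthest upstream annotated start was used. Called bases within 1 kb of starts were counted around every annotated start, or around either gene end where none was given. The members, gene lists, motifs and tests were chosen with earlier results of these data known, and the motifs after the promoters had been seen; the NRF1 and CTCGCGAGA motifs were then shortened by 1 letter. All 8 members were named, with pathway genes that were knockout-only or control-only for a mark or called for H3K27me3. For single genes the 6 assignments of 4 lists gave an exact permutation p (two-sided), with Benjamini-Hochberg adjustment over genes with a call. Sums over members were not tested. Alternatives were gene spans without flank, 1 kb windows at starts, peaks wider than the minimum of 501 bp, an overlap of 50% of the peak, equal list lengths, each list left out, and a replicate block. Peaks of 501 bp were planted in the deposited lists at 100 of the 21887 genes for each mark and direction, and the counting step recovered 100. These genes had no call of the mark and the planted peaks lay in no other window, so this checks the counting code alone. Computations used Python 3.11.15, numpy 2.4.6, pandas 2.3.3 and matplotlib 3.10.9.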

Additional observations from a re-analysis of the deposited data

How the results depend on the processing

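The direction of the summed H3K4me3 held in each of these settings, but the count of members depends on list length and on peaks at the minimum width. With each list reduced to its 2431 widest peaks, the length of the shortest, the knockout-only members fell from 6 to 1, namely Wtap, beside 3.01% of all genes. The knockout lists then keep no peak narrower than 1178 bp and 1149 bp, and Mettl3, Virma, Rbm15b and Zc3h13 are called in none. With peaks wider than 501 bp alone the knockout-only members numbered 4, without Mettl3 and Rbm15b. The difference in called H3K4me3 over the 8 windows, 9.37 kb as deposited, was 4.75 kb at equal length, 8.08 kb without flanks and 8.18 kb within 1 kb of starts. Leaving out 1 list gave 6 to 7 knockout-only and 0 control-only members and 8.46 to 10.3 kb.

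For H3K27ac, leaving out 1 list gave 1 to 2 knockout-only members, with Mettl14 added without control replicate 1 and Cbll1 without control replicate 2. It gave 0 to 2 control-only members, Virma and Zc3h13 without knockout replicate 2. With wider peaks alone the knockout-only member was Mettl14 and no longer Mettl3. Called bases differed by 0.650 kb, by 1.98 kb within 1 kb of starts, where the groups separated, by 1.65 kb with wider peaks alone, and by -0.672 to 1.97 kb with 1 list left out. The order turned without control replicate 1 (-0.672 kb) and without knockout replicate 2 (-0.545 kb). For single members the difference ranged with 1 list left out from -1253.5 to 429.5 bp at Wtap, -570.5 to 61.5 bp at Virma and -400.5 to 192.5 bp at Rbm15. Within 1 kb of starts it turned to 316.0 bp at Virma, 250.5 bp at Zc3h13 and 0.5 bp at Rbm15, and with wider peaks alone to 146.5 bp at Rbm15. All H3K27me3 counts and sums stayed at 0 in each of these settings.

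The replicate block left the differences at 9.37 kb, 0.650 kb and 0 kb, as the mean of paired differences equals the difference of means. Same-numbered lists did not deviate together gene by gene in called bases (correlations of 0.005, 0.009 and 0.017 over genes). Such a correlation does not see a shift common to all genes, so it cannot show whether same-numbered libraries were prepared together. Minimum-width peaks and unknown depth limit what an absent call means.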
